A study of Mus musculus with 16 samples.

Results

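Olfr221, Olfr937 and Olfr170 are mouse odorant receptor genes whose transcripts lay higher in one sorted fraction of olfactory mucosa cells, and lower in the other, after mice breathed isoamyl acetate mixed with whiskey lactone. They are 3 of 1091 genes with an Olfr symbol on the array, which measured 19505 genes in all. They were chosen by name, with their response to the odor mixture in these same libraries already known. Their levels and differences are therefore descriptions, given with no p-value, and tests are given for other genes.

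The 16 libraries came from olfactory mucosa of C57BL/6 S100a5-tauGFP mice of both sexes, aged 7 to 12 weeks. In these mice green fluorescent protein (GFP) is a reporter tied to S100a5. All 24 animals sat singly in clean air chambers for 40 h and, from 26 h on, received odor or filtered air (the vehicle) in pulses of 10 s every 20 min. Tissue of 3 mice was pooled, dissociated and sorted by GFP, so that 4 odor pools and 4 vehicle pools each gave a library titled GFP+ and a library titled GFP-. The groups are odor titled GFP+, vehicle titled GFP+, odor titled GFP- and vehicle titled GFP-, with 4 libraries each. The animals of a pool are not resolved, and the reporter reads S100a5 expression and not receptor activation itself.

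Each mature olfactory sensory neuron expresses a single odorant receptor gene, from a single allele. Odorants that activate the receptor raise cyclic AMP through the G protein subunit Gnal and the cyclase Adcy3, and the neuron fires. S100a5, a calcium-binding protein, is induced in olfactory neurons by activity, so a sort on its reporter separates neurons by recent activity, and receptor transcripts that change fraction with an odor are read as receptors of neurons that the odor reached.

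The sorted fractions were checked on genes other than the receptors. The title and the cell type tag of all 16 libraries named opposite fractions, and fractions are called here by title. Were the tags correct instead, titled GFP+ would read GFP- throughout, and fraction differences and shifts would take the opposite sign. S100a5 was higher in the library titled GFP- in 7 of 8 pools, against its title. Vehicle pool 3 was the exception, with 16.37 in its titled GFP+ and 14.99 in its titled GFP- library on the deposited log2 scale. Whether its 2 libraries were exchanged was not tested; an exchange would turn the sign of every fraction difference of that pool and so move the vehicle means and the shifts from 16 arrays. S100a5 averaged 15.27 ± 0.24 in odor titled GFP+ and 14.99 ± 0.45 in vehicle titled GFP+ without vehicle pool 3. In titled GFP- it averaged 16.43 ± 0.27 in odor and 16.35 ± 0.09 in vehicle without that pool (SD, n = 4 and 3). With it the vehicle means were 15.33 ± 0.78 in titled GFP+ and 16.01 ± 0.68 in titled GFP- (n = 4). Results are given as labelled (16 arrays) and again with vehicle pool 3 left out (14 arrays). Omp, the olfactory marker protein of mature neurons, lay between 18.44 and 18.68 in every library. The mean of 8 mature neuron markers lay between 17.26 and 17.62 in every library. Like levels of these markers do not show like cell composition, since markers of other cells differed between fractions. In odor pools the mean of 8 immune markers ran from 10.85 to 13.50 in titled GFP+ and from 4.59 to 6.28 in titled GFP-.

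The windows before the coding starts are shown as sequence context for the 3 receptors, which lie on different chromosomes. Any link of these sequences to the shift between fractions was not tested. Olfr221 (also MOR205-1 and MOR205-2) is on the minus strand at chr14:52035174-52036109 of GRCm38.p6, with a coding length of 936 bases. Olfr937 (MOR171-24) is on the minus strand at chr9:39059729-39060664, also 936 bases. Olfr170 (MOR273-2) is on the minus strand at chr16:19605725-19606666, 942 bases. The gene models are from RefSeq and hold no UTR, so a window of 250 bases before to 50 after the start ends in coding sequence, with the start codon at base 251, and may not be the promoter. Capitals mark matches on either strand to the letters TAATNA, the core that LIM homeodomain proteins such as Lhx2 bind in receptor promoters. The windows of RefSeq, GRCm38.p6, minus strand, are chr14:52036060-52036359 for Olfr221, chr9:39060615-39060914 for Olfr937 and chr16:19606617-19606916 for Olfr170.
Olfr221: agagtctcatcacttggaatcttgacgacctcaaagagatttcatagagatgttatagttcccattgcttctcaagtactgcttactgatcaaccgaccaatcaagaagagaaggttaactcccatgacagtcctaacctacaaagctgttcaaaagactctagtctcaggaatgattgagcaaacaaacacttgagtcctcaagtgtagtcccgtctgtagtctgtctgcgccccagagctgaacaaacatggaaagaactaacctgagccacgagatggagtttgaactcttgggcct
Olfr937: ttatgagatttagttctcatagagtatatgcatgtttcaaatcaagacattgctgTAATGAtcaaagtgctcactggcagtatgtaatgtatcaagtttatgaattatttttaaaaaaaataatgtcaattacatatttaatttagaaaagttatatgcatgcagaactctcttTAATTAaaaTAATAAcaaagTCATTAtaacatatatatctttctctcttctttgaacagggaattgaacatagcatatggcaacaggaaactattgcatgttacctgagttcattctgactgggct
Olfr170: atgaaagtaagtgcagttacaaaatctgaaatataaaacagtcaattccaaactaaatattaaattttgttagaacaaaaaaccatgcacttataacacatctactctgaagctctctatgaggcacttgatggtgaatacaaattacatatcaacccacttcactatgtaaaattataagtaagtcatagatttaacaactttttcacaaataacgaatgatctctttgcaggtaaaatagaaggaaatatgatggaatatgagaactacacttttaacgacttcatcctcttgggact

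The windows held 0, 4 and 0 matches in Olfr221, Olfr937 and Olfr170. Of 925 receptor windows of the same length, 66.3% held at least 1 match and 6.81% held 4 or more. Of 27025 windows over all genes, 26.8% held at least 1. The window sets are unlike, since 72.9% of receptor windows but 6.75% of all windows have a start codon after base 250, so the shares are not a like comparison. A window without them shows only that they are not in those 300 bases.

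Olfr221 showed the widest separation. Its level was 8.05, 9.03, 7.79 and 9.38 in odor titled GFP+ (pools 1 to 4), against 10.80, 11.31, 10.08 and 9.69 in vehicle titled GFP+. It was 12.78, 13.18, 12.77 and 12.78 in odor titled GFP-, against 9.55, 10.32, 11.13 and 10.01 in vehicle titled GFP-. All odor libraries lay below all vehicle libraries in titled GFP+ and above all of them in titled GFP-. In order of level, odor titled GFP- stood highest at 12.88 ± 0.20. Vehicle titled GFP+ at 10.47 ± 0.72 and vehicle titled GFP- at 10.25 ± 0.67 followed and overlapped, and odor titled GFP+ was lowest at 8.57 ± 0.76 (SD, n = 4 each). A lower level in a sorted fraction may be fewer cells with the receptor or less receptor RNA per cell, and these bulk libraries cannot tell them apart.

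Olfr937 followed the same pattern over a narrower range. Its level was 6.91, 7.42, 7.21 and 6.67 in odor titled GFP+, against 7.90, 7.87, 8.76 and 8.03 in vehicle titled GFP+. It was 9.61, 9.27, 9.58 and 9.54 in odor titled GFP-, against 8.12, 8.19, 9.39 and 8.58 in vehicle titled GFP-. The titled GFP+ groups did not overlap. In titled GFP-, vehicle pool 3 at 9.39 lay above the lowest odor library at 9.27, and the other 3 vehicle libraries lay below all odor libraries. The order was odor titled GFP- (9.50 ± 0.16), vehicle titled GFP- (8.57 ± 0.58), vehicle titled GFP+ (8.14 ± 0.42) and odor titled GFP+ (7.05 ± 0.33). The vehicle groups overlapped each other.

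Olfr170 had a smaller shift than Olfr221 and Olfr937. Its level was 9.96, 10.09, 10.51 and 9.83 in odor titled GFP+, against 10.68, 10.76, 10.37 and 11.51 in vehicle titled GFP+. It was 11.47, 11.58, 11.96 and 11.63 in odor titled GFP-, against 10.69, 10.22, 10.83 and 10.67 in vehicle titled GFP-. The titled GFP- groups did not overlap, while in titled GFP+ odor pool 3 at 10.51 lay above vehicle pool 3 at 10.37. Odor titled GFP- was highest at 11.66 ± 0.21, followed by vehicle titled GFP+ at 10.83 ± 0.48, vehicle titled GFP- at 10.60 ± 0.26 and odor titled GFP+ at 10.10 ± 0.30. Of these neighbours in order, each pair overlapped in at least 1 library.

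**Figure D1:**
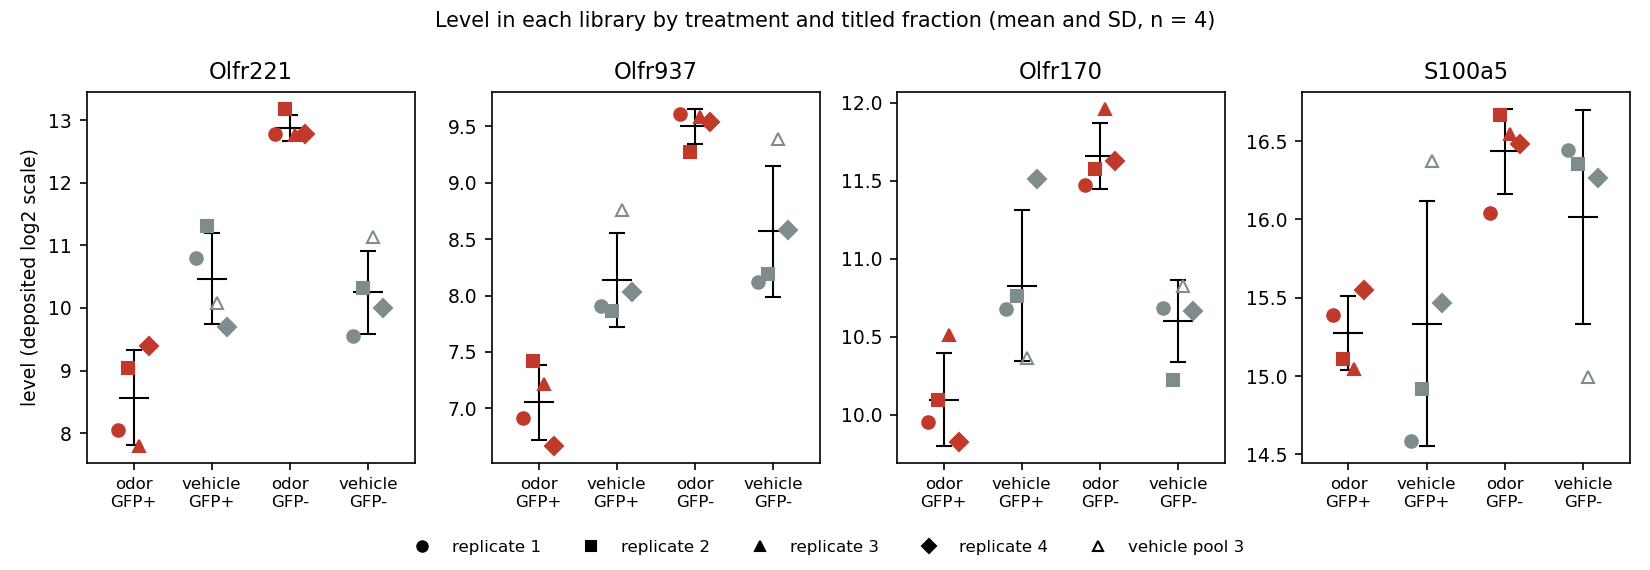
Deposited log2 level (vertical axis, a separate scale for each gene) of Olfr221, Olfr937, Olfr170 and S100a5 in each library, by treatment and titled fraction (horizontal axis). Marker shapes are pools 1 to 4, open triangles are vehicle pool 3, and bars are the mean and SD of 4 libraries. In titled GFP- the odor libraries of Olfr221 sit between 12.77 and 13.18 and its vehicle libraries between 9.55 and 11.13.

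Since both libraries of a pool came from the same mice, the fraction difference, titled GFP+ minus titled GFP-, was taken within each pool. For Olfr221 it was -4.73, -4.15, -4.98 and -3.40 in odor pools 1 to 4, against 1.26, 0.98, -1.04 and -0.32 in vehicle pools. For Olfr937 it was -2.69, -1.86, -2.37 and -2.88 in odor pools, against -0.22, -0.32, -0.63 and -0.55 in vehicle pools. For Olfr170 it was -1.52, -1.49, -1.45 and -1.80 in odor pools, against -0.01, 0.54, -0.46 and 0.84 in vehicle pools. Every odor pool lay below every vehicle pool for each of the 3 receptors. Over all genes, 192 of 19505 (0.984%) had odor pools below vehicle pools without overlap, as had 13 of 1091 receptors (1.19%). The odor pool with the weakest difference for Olfr221, pool 4, had the strongest for Olfr937 and Olfr170, so the pools did not rank alike.

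In vehicle pools the receptors had no common side. Olfr937 was lower in titled GFP+ in 4 of 4 vehicle pools, with a mean difference of -0.43 ± 0.19. Olfr221 and Olfr170 were lower in titled GFP+ in 2 of 4 vehicle pools each, with means of 0.22 ± 1.09 and 0.23 ± 0.58 (SD, n = 4). Without vehicle pool 3 the means were 0.64 ± 0.84 for Olfr221, -0.36 ± 0.17 for Olfr937 and 0.46 ± 0.43 for Olfr170 (SD, n = 3). Single libraries moved these vehicle means: the difference of Olfr221 was -0.06 without vehicle titled GFP+ replicate 2, -0.01 without vehicle titled GFP- replicate 1 and 0.51 without vehicle titled GFP- replicate 3. That of Olfr937 was -0.16 without vehicle titled GFP- replicate 3, and that of Olfr170 was 0.00091 without vehicle titled GFP+ replicate 4.

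**Figure D2:**
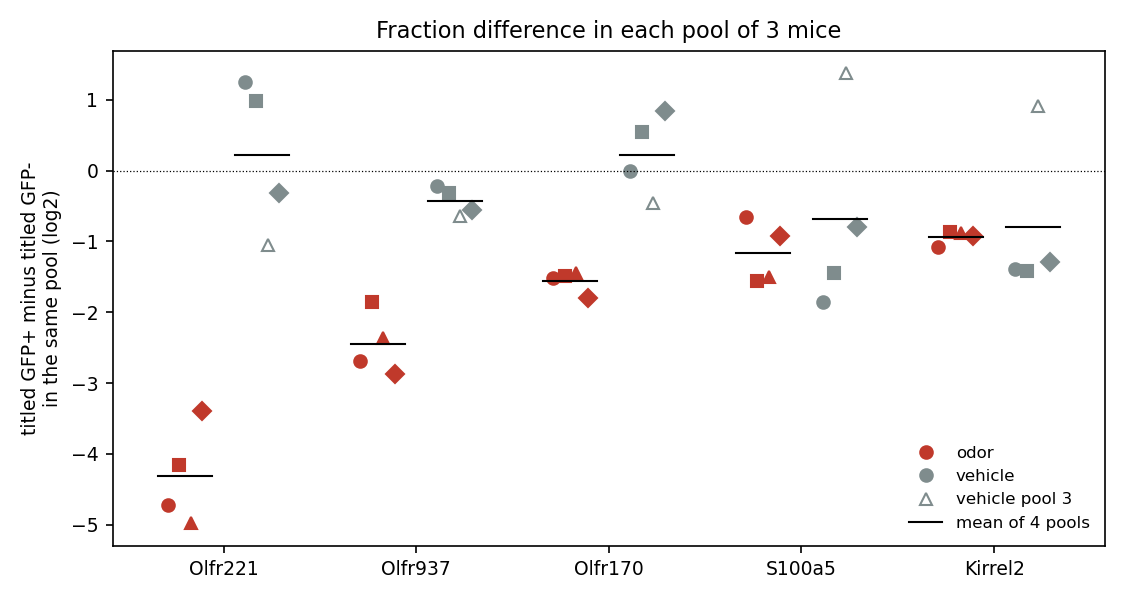
Difference between the library titled GFP+ and the library titled GFP- of the same pool (vertical axis, log2) for the 3 receptors, S100a5 and Kirrel2 (horizontal axis). Each point is a pool, with shapes for pools 1 to 4 and open triangles for vehicle pool 3, and lines are means of 4 pools. For the receptors the odor pools lie below the vehicle pools, and for S100a5 and Kirrel2 vehicle pool 3 alone lies above 0.

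The mean of both libraries of a pool was taken next. Olfr221 averaged 10.72 ± 0.43 in odor pools and 10.36 ± 0.43 in vehicle pools. Olfr937 averaged 8.28 ± 0.13 in odor pools and 8.36 ± 0.50 in vehicle pools, and Olfr170 averaged 10.88 ± 0.25 and 10.71 ± 0.26 in odor and vehicle pools (SD, n = 4 each). The odor and vehicle ranges overlapped for all 3. The differences in mean, odor minus vehicle, were 0.36 ± 0.29, -0.08 ± 0.19 and 0.16 ± 0.16 (limma SE). In this contrast 6 of 19505 genes (0.0308%) passed. With 14 arrays the differences were 0.44 ± 0.28, 0.16 ± 0.13 and 0.13 ± 0.16, so the sign for Olfr937 depended on vehicle pool 3, and 125 genes (0.641%) passed, among them 3 of the other 1088 receptors. Since a pool's cells were not counted here, the mean of 2 libraries is not the level in whole tissue.

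The odor shift, the fraction difference in odor minus that in vehicle, was estimated with limma over all genes. It was -4.53 ± 0.57 for Olfr221, -2.02 ± 0.38 for Olfr937 and -1.79 ± 0.32 for Olfr170 (SE, 16 arrays). Negative values are shifts toward titled GFP-, the fraction with more S100a5 in 7 of 8 pools. Without vehicle pool 3 the shifts were -4.96 ± 0.55, -2.08 ± 0.26 and -2.02 ± 0.32, so each was as large without that pool. Of 19505 genes, 1 (0.00513%) had an adjusted p under 0.05 by limma with 16 arrays and 2 (0.0103%) with 14. All of the genes that passed, with either set of arrays, were chosen receptors. Since they were chosen on this contrast, the counts add no support for them. With the pool as a block, 0 genes passed with 16 arrays (512 at an unadjusted p under 0.05) and 1 gene (0.00513%), also a chosen receptor, with 14. With each library left out of the 16 in turn, 0 genes passed in 10 of 16 fits.

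Among the other 1088 receptors, 0 passed in the shift by limma with either set of arrays, while 77 had an unadjusted p under 0.05 with 16 arrays and 48 with 14. The rank of the chosen receptors depended on vehicle pool 3. From the most negative shift, Olfr221, Olfr937 and Olfr170 ranked 1, 38 and 56 of 1091 receptors with 16 arrays, and 1, 2 and 3 with 14. With 16 arrays, 95% of receptors lay between -2.13 and 3.50, and Olfr494 stood next after Olfr221 at -3.77 ± 1.61. Olfr1151 (-2.03 ± 1.08) and Olfr490 (-2.01 ± 1.53) stood on either side of Olfr937, and Olfr1037 (-1.80 ± 1.39) and Olfr644 (-1.79 ± 1.16) on either side of Olfr170. The standard errors of these 5 were larger than those of the receptor beside them. With 14 arrays the same central range narrowed to -0.96 to 0.98, and the receptor after Olfr170 was Olfr1168 at -1.42 ± 0.39. All of these other receptors had an adjusted p of 0.999 or more.

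Split by fraction, the odor minus vehicle difference in titled GFP+ was -1.90 ± 0.41 for Olfr221, -1.09 ± 0.27 for Olfr937 and -0.73 ± 0.23 for Olfr170 (SE, 16 arrays). In titled GFP- it was 2.63 ± 0.41, 0.93 ± 0.27 and 1.06 ± 0.23. With 14 arrays the differences were -2.03 ± 0.39, -0.88 ± 0.18 and -0.88 ± 0.23 in titled GFP+, and 2.92 ± 0.39, 1.20 ± 0.18 and 1.14 ± 0.23 in titled GFP-. For each receptor the sign was negative in titled GFP+ and positive in titled GFP- with both sets of arrays. Of all genes, 0 passed in titled GFP+ with 16 arrays by limma (908 at an unadjusted p under 0.05) and 7 (0.0359%) with 14. In titled GFP-, 2 genes (0.0103%) passed with 16 arrays and 5 (0.0256%) with 14. Of these 5, 2 were chosen receptors, and they add no support, since their odor response was known when they were chosen. Of the other 1088 receptors, 0 passed in either fraction, with 42 and 43 at an unadjusted p under 0.05 in titled GFP+ and titled GFP- with 16 arrays. A block on replicate number was also fitted. Odor and vehicle pools of the same number hold separate mice, so this block reflects no pairing by design. With it 0 genes passed in either fraction with 16 arrays. With 14 arrays 0 passed in titled GFP+ (1361 at an unadjusted p under 0.05) and 1 (0.00513%) in titled GFP-.

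The overlap of the groups was counted over all genes. In titled GFP- odor lay above vehicle without overlap for 445 genes (2.28%) and 22 receptors (2.02%), Olfr221 and Olfr170 among them. In titled GFP+ odor lay below vehicle without overlap for 287 genes (1.47%) and 14 receptors (1.28%), Olfr221 and Olfr937 among them. Both held for 5 genes (0.0256%) and for 1 receptor (0.0917%), Olfr221. Without vehicle pool 3, the first held for 833 genes (4.27%) and 31 receptors (2.84%), the second for 673 genes (3.45%) and 23 receptors (2.11%), with all 3 chosen receptors in each. Both held for 11 genes (0.0564%) and 3 receptors (0.275%), which were Olfr221, Olfr937 and Olfr170. These counts describe how the receptors stand out in the contrast on which they were chosen.

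**Figure D3:**
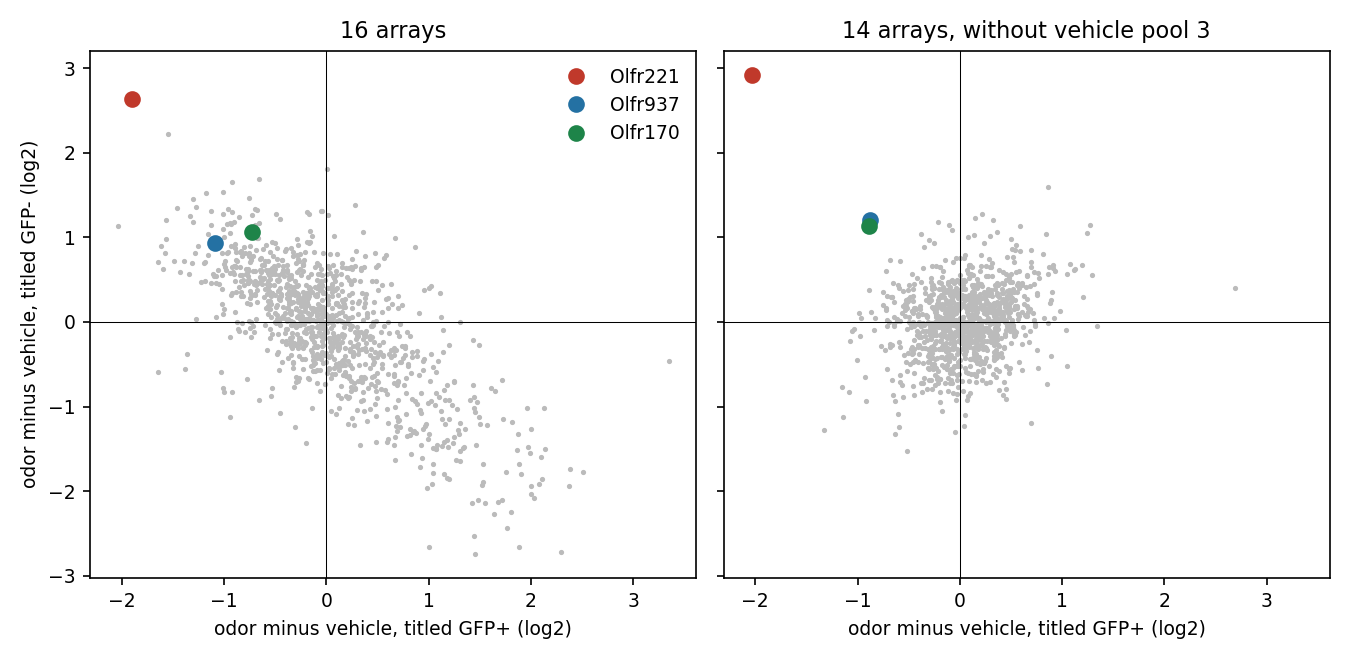
Odor minus vehicle difference in titled GFP+ (horizontal axis, log2) against that in titled GFP- (vertical axis, log2) for 1091 receptors, each a point, with 16 arrays (left) and 14 arrays (right). The colored points are Olfr221, Olfr937 and Olfr170. With 14 arrays Olfr221 stands at -2.03 and 2.92, and Olfr937 and Olfr170 both lie near -0.88 in titled GFP+, at 1.20 and 1.14 in titled GFP-.

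Within odor pools the 3 receptors were lower in titled GFP+ by 4.31 ± 0.41 for Olfr221, 2.45 ± 0.27 for Olfr937 and 1.56 ± 0.23 for Olfr170 (limma SE). Many other genes separated as well. In odor pools 1359 genes (6.97%) passed with 16 arrays, including 402 of the other 1088 receptors, of which 199 were higher and 203 lower in titled GFP+. By this measure alone the receptors ranked 13, 116 and 244 of 1091 from the lowest. The count changed with the libraries fitted, and it was 3 or fewer in 7 of 16 fits with a library left out. Those left out odor titled GFP+ replicate 1, 2 or 3 or any odor titled GFP- replicate. Leaving out vehicle pool 3 changed the SE and not the difference in odor pools. S100a5, for example, had -1.16 ± 0.36 with 16 arrays and -1.16 ± 0.20 with 14. Why the count changed was not tested. With 14 arrays 2570 genes (13.2%) passed, and with the pool as a block 2 (0.0103%) passed with 16 arrays and 2645 (13.6%) with 14. Both genes of the block with 16 arrays were chosen receptors, and 0 of the other 1088 receptors passed there. Since the chosen receptors were picked on these data, that count adds no support for them. In vehicle pools 0 genes passed by limma with 16 arrays (1912 at an unadjusted p under 0.05) and 2180 (11.2%) with 14, including 579 other receptors.

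Neighbouring receptor genes were compared, since receptor genes lie in clusters. For each receptor the 5 measured receptor genes nearest on either side were taken. In the shift 0 of 10 passed around Olfr221, around Olfr937 and around Olfr170, beside 0 of the other 1088 receptors. Over all genes only 1 (0.00513%) passed with 16 arrays, a chosen receptor. Counts of 0 therefore do not set the neighbours apart from other genes. The median shifts of the neighbours were -0.76, -0.21 and -0.76 with 16 arrays and -0.23, 0.08 and -0.34 with 14. Medians over all receptors were -0.10 and 0.05, and over all genes -0.01 and 0.01. Olfr221 lies alone, with its nearest measured receptors 964.9 kb to the left (Olfr750, 1.41 ± 1.74) and 313.9 kb to the right (Olfr1513, -1.03 ± 0.51).

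Of the 10 neighbours of Olfr937, 9 belong to its own family, MOR171. Olfr936, 13.1 kb to the left, had a shift of -0.43 ± 0.44, and Olfr938, 18.1 kb to the right, had 1.37 ± 0.52, opposite in sign to Olfr937 (unadjusted p = 0.0190, adjusted p = 0.999 by limma). Around Olfr170, Olfr169 at 39.8 kb had -1.49 ± 0.75 and Olfr171 at 18.4 kb had -2.09 ± 1.15 with 16 arrays. With 14 arrays they had -0.48 ± 0.45 and -0.50 ± 0.58. Olfr167, at 91 kb, had the smallest p of the 30 neighbours, with -1.76 ± 0.59 and -0.93 ± 0.32 in the 16 and 14 arrays (unadjusted p = 0.00957 and 0.0105), and an adjusted p of 0.999 or more in both. It was also among the 13 receptors whose odor pools lay below the vehicle pools. The other 4 genes to the right of Olfr171 start more than 39154 kb from Olfr170, in another cluster.

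**Figure D4:**
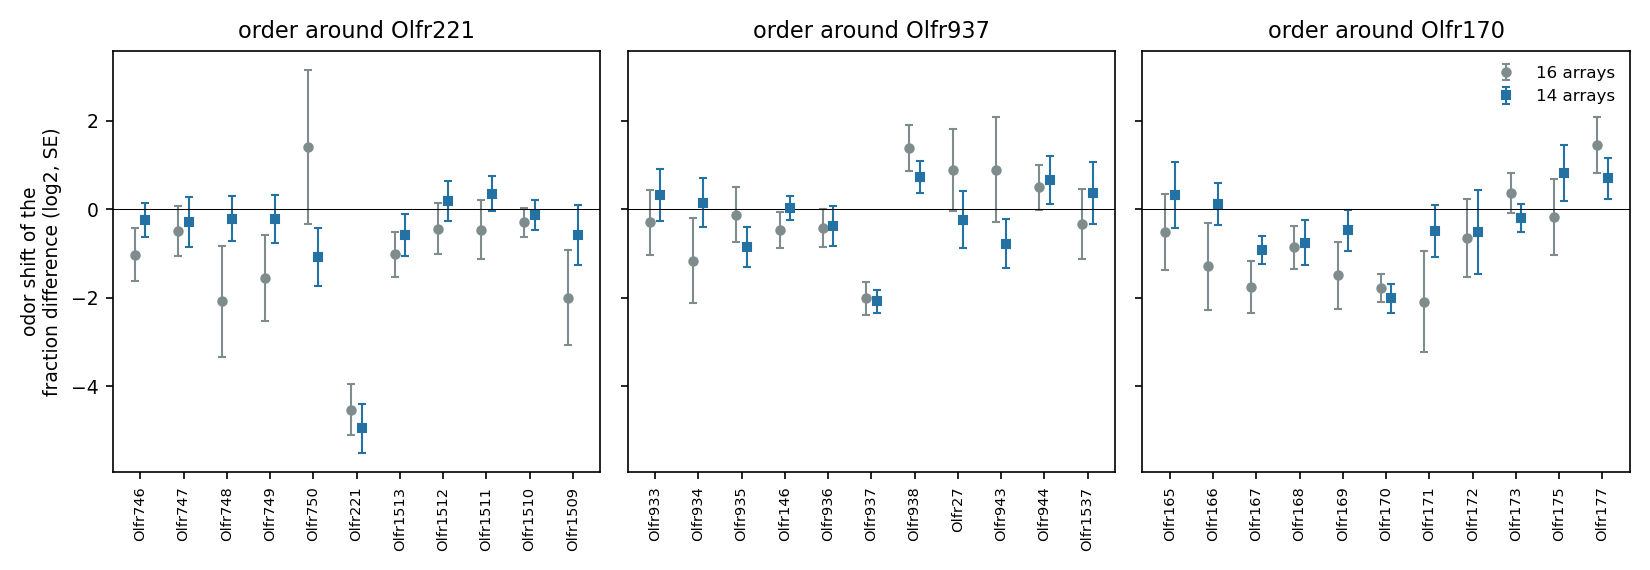
Odor shift of the fraction difference (vertical axis, log2, with limma SE) for each receptor and the 5 measured receptor genes on either side, in chromosomal order (horizontal axis, not to distance). Circles are 16 arrays and squares 14 arrays. The central gene of each panel stands at -4.53, -2.02 and -1.79 with 16 arrays, and around Olfr170 the neighbours Olfr169 and Olfr171 lie nearer to 0 with 14 arrays.

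Receptors of the same family, by the MOR number among their synonyms, were also compared, because close relatives can share ligands. Olfr221 had no other gene of its MOR family in the gene table. For Olfr937, 36 of 46 other MOR171 genes were measured, of which 0 passed and 4 had an unadjusted p under 0.05 with 16 arrays, beside 77 of the other 1088 receptors and 581 of 19505 genes. Their shifts ran from -2.39 to 3.56 with a median of -0.32, and with 14 arrays from -1.10 to 1.08 with a median of 0.05. For Olfr170 the 3 other MOR273 genes were Olfr169, Olfr171 and Olfr1115, of which 0 passed, and Olfr1115 had -0.20 ± 0.33. Each of the 3 chosen receptors was read by 1 probe set, whose probe sequences were not used here, so signal from a near-identical receptor cannot be told apart from its own.

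Other genes of the signalling pathway were counted in the same contrast. Of 18 genes of olfactory transduction and receptor trafficking, 0 passed in the shift, with values from -0.37 to 0.16 and a median of -0.01 with 16 arrays. With 14 arrays they ran from -0.62 to 0.18 with a median of 0.04, and Slc8b1, a sodium and calcium exchanger, had -0.62 ± 0.45 with 14 arrays and 0.16 ± 0.67 with 16. Slc24a4, the potassium-dependent sodium and calcium exchanger that ends the response, had the smallest p with 16 arrays, at -0.37 ± 0.19. Gnal, the stimulatory G protein subunit of the neurons, had -0.17 ± 0.14. Of 11 receptors with other known ligands 9 were measured and 0 passed. With 16 arrays Olfr1509 had -1.999 ± 1.08, the lowest, and Olfr160 had -1.60 ± 1.05, while Olfr690 had 1.49 ± 0.63 (unadjusted p = 0.0323, adjusted p = 0.999 by limma) and Olfr1440 had 2.33 ± 1.25, the highest. With 14 arrays the list ran from -0.75 to 1.19.

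Of 6 genes that follow neuronal activity, 0 passed in the shift. S100a5 had -0.48 ± 0.50 with 16 arrays and 0.21 ± 0.30 with 14 (adjusted p of 0.999 and 1.00 by limma), so its sign depended on vehicle pool 3. The same list differed more between treatments within a fraction. Pcdh10, a protocadherin, rose in odor titled GFP- by 2.87 ± 0.37 over vehicle titled GFP- (adjusted p = 0.0124 by limma). It was 1 of 6 genes to pass there, beside 0.0103% of all genes. The list was chosen with earlier results of these data known, so this count is a description and not an independent test. Its adjusted p by limma was 0.117 with the replicate number as a block, and 0.00208 to 0.117 over all alternatives. With 14 arrays it rose in both, by 2.15 ± 0.32 in titled GFP+ (adjusted p = 0.0375) and by 2.61 ± 0.32 in titled GFP- (adjusted p = 0.00587). Lrrc3b, a leucine-rich repeat protein, rose by 1.41 ± 0.22 in titled GFP+ with 14 arrays (adjusted p = 0.0375). With the replicate number as a block, 14 arrays gave an adjusted p by limma of 0.198 for both in titled GFP+ and 0.0996 for Pcdh10 in titled GFP-. That number joins odor and vehicle pools of separate mice, so the block corrects for no pairing by design. The 16 arrays without a block gave 0.648 for Pcdh10 and 0.9995 for Lrrc3b in titled GFP+. The differences of Pcdh10 thus had the same sign in both fractions, where those of the 3 receptors had opposite signs. Kirrel2, an adhesion protein of olfactory axons, was 0.95 ± 0.39 and 1.09 ± 0.39 higher in odor titled GFP+ and titled GFP- and did not pass. With 14 arrays it was 1.43 ± 0.28 and 1.00 ± 0.28 higher and did not pass. In the mean of both fractions Pcdh10 passed with 16 arrays (2.37 ± 0.26, adjusted p = 0.00176 by limma), beside 0.0308% of all genes. With 14 arrays Pcdh10, Lrrc3b and Kirrel2 passed there (adjusted p = 0.000221, 0.00166 and 0.00964 by limma), beside 0.641%. The rest of the 6 genes passed there with neither set of arrays.

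Markers of other cells moved with the fractions and with vehicle pool 3. The mean of 8 immune markers ran from 10.85 to 13.50 in odor titled GFP+, and from 13.00 to 13.54 in vehicle titled GFP+ without pool 3, whose value was 4.57. It ran from 4.59 to 6.28 in odor titled GFP- and from 5.71 to 7.18 in vehicle titled GFP- without pool 3, whose value was 11.38. In odor pools 8 of 8 immune markers, 4 of 4 microvillar and ionocyte-like markers, 3 of 3 immature neuron markers, 3 of 4 progenitor markers and 2 of 5 sustentacular markers were higher in titled GFP+ and passed, beside 6.97% of all genes in either direction. With the pool as a block on 16 arrays 0 genes were higher and passed, so all of these marker calls were lost. The 2 genes that passed there were both lower and both chosen receptors. With the block on 14 arrays 2645 genes (13.6%) passed, including 8 of 8 immune markers. In 7 of 16 fits with a library left out 3 or fewer genes passed in all. In the odor shift, and in odor against vehicle within either fraction, 0 of the markers of any list passed with 16 or 14 arrays. Their part in the receptor differences was not tested.

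The position of the receptors within the range of the array differed. The 5222 negative control probe sets lay at a median of 5.46, with 5% above 9.79. All 16 libraries of each receptor lay above that median. For Olfr170 16 of 16 libraries lay above 9.79, for Olfr221 10 of 16 did, and for Olfr937 0 of 16. In odor titled GFP+, 0 of 4 libraries of Olfr221 lay above it, against 3 of 4 in vehicle titled GFP+.

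The genes whose 16 values were most like those of each receptor were found by Pearson correlation, as a description over libraries that share pools and groups. For Olfr221 they were Papln, an extracellular matrix protein (r = 0.88), Olfr937 (0.85), Cyp4a31, a cytochrome P450 (0.84), the transcription factor Tbx18 (0.79) and the neuregulin receptor Erbb4 (0.79). For Olfr937 they were Ripply1 (0.88), the cadherin Cdh4 (0.86), the coatomer subunit Copa (0.86), the microtubule protein Map1b (0.86) and Olfr221 (0.85). For Olfr170 they were the claudin Cldn20 (0.82), the potassium channel Kcnk3 (0.80), Olfr937 (0.79), Plekhm3 (0.79) and Olfr221 (0.78). S100a5 itself had r of 0.45, 0.55 and 0.40 with Olfr221, Olfr937 and Olfr170.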

How the data were processed

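Biotin-labelled RNA made from 50 to 100 ng of total RNA was hybridised to 16 Affymetrix arrays, per the labels' protocols. The authors deposited a table of log2 values for 28846 probe sets; the submitters' processing notes name Affymetrix Expression Console. The sources used here do not give its version, the summarization or the build. Values reached 19.40 from a low of 1.69, which exceeds what a 16-bit scanner can give, so an unstated step set the scale, whether by a shift or a change of slope is unknown, and no folds are given. Library medians were 6.13 to 6.45, and precision is limited by the number of arrays.

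Probe sets with 1 gene symbol (19572) were reduced to 19505 genes by the highest mean over 16 arrays; 55 genes had several. Differences between the 4 group means were fitted with limma 3.58.1 in R 4.3.3 without a block (lmFit, eBayes, two-sided). Benjamini-Hochberg adjustment ran over all genes, with a threshold of 0.05 ("passed"). The fit was tested on simulated data. Both fractions of a pool came from the same mice, so pools pair libraries by design. The correlation of their deviations from the group means was 0.13 to 0.25 in odor pools and -0.75 to -0.06 in vehicle pools; odor and vehicle shared only numbers. Pools hold separate mice, so the spread is between pools.

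The members, lists, tests and alternatives, vehicle pool 3 left out among them, were chosen with earlier results of these data known. The named genes were the 3 receptors, S100a5, Kirrel2 and Omp, the 5 genes most correlated with each receptor, the nearest and next-ranked receptors, and from each list genes that passed and up to 2 with the smallest p; marker lists are given as counts. Olfr167, Olfr1115, Olfr160, Olfr1509 and Slc8b1 were named after their values were seen. Closest paralogs by protein were replaced by MOR families, a choice made after the data were seen, as no protein table was used here. Alternatives were other normalizations, filters, weights, each library left out and a block. The block was the pool for shifts and fraction differences, and the replicate number for odor against vehicle within a fraction.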

Additional observations from a re-analysis of the deposited data

Results flagged for a closer look

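In 36 groups of 4 values checked for a value far from the others (Dixon's ratio above 0.829, which chance gives in about 1 of 20 groups), 3 were found. Olfr221 in odor titled GFP- had a high value of 13.18 in pool 2, beside 12.77 to 12.78 in the other pools. S100a5 in vehicle titled GFP- had a low value of 14.99 in pool 3, beside 16.27 to 16.44 in the others. The fraction difference of Kirrel2 in vehicle pools was 0.91 in pool 3, beside -1.41 to -1.29 in the others. The last pair belong to the same pool of mice.

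Olfr221 was also singled out because every odor library lay below vehicle in titled GFP+ and above vehicle in titled GFP-, with a difference between those effects of -4.53 on the log2 scale. No p-value is given for that difference, since the gene was chosen for it.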

How the results depend on the processing

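Each difference of Olfr221, Olfr937 and Olfr170 named above moved by less than its residual SD between libraries (0.63, 0.40 and 0.33) under every alternative, except the odor fraction difference of Olfr170, which was -1.91 with arrays centred on their medians. The vehicle fraction differences are small beside that SD, and leaving out a library took them from -0.06 to 0.51 for Olfr221, -0.64 to -0.16 for Olfr937 and 0.00091 to 0.38 for Olfr170. Leaving out each library in turn gave shifts from -4.83 to -4.26 for Olfr221, -2.29 to -1.81 for Olfr937 and -1.94 to -1.56 for Olfr170. Counts of genes that passed moved more. For the shift they were 2 without vehicle pool 3, 3 with array weights and 0 to 2 with a library left out, 2 without vehicle titled GFP- replicate 3. For odor against vehicle in titled GFP+ they were 7 without that pool and 0 to 3 with a library left out, and in titled GFP- 5 and 1 to 5, each highest without vehicle titled GFP+ replicate 3. For the fractions in odor they were 2570 without that pool, 5741 with centred arrays, 2727 with array weights, 896 with a trended robust prior and 2 to 2184 with a library left out (lowest without odor titled GFP+ replicate 2, highest without vehicle titled GFP+ replicate 3). For the fractions in vehicle they were 2180, 1599 with array weights, and 0 to 1163 with a library left out, the highest without vehicle titled GFP+ replicate 3 and 19 without vehicle titled GFP- replicate 3. For the mean of both fractions the count was 6 with 16 arrays, 125 without that pool, 2 centred, 3 after quantile normalization, 173 with weights and 2 to 74 with a library left out, highest without vehicle titled GFP+ replicate 3. Centring moved the median shift of all genes to -0.17 from -0.01. Neighbour and family counts stayed at 0 in every setting. The causes were not tested.

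With the pool as a block, 16 arrays gave 0 genes in the shift and 2, both chosen receptors, in the odor fractions. With the replicate number as a block they gave 0 in odor against vehicle in titled GFP-. Without vehicle pool 3 the replicate number block gave 1 in titled GFP-. The pool block then gave 2645 in the odor fractions and 2314 in the vehicle fractions. Closest paralogs by protein identity were not run. The low receptor values lie within the range of the negative controls, which limits their precision.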
